A study of Mus musculus with 12 samples.

Results

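The genes described here are 50 mouse genes that encode the machinery of DNA replication and of mitosis, from the helicase that opens replication origins to the proteins that separate daughter cells. A gene was measured where a probe set of the array was annotated to it alone, and of several such probe sets the brightest on average over the 12 arrays was used. This held for 49 of the 50, out of 19938 genes measured in all; Ccnb1, which encodes cyclin B1, had no such probe set and is not analysed here. Pcna and Top2a had a further probe set each.

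The samples were ventricles of male C57BL/6 mice, and the study's question was which genes are enriched in the right heart when its outflow is obstructed. Right ventricles (RV) came from mice with a Weck haemoclip closed around the pulmonary artery (pulmonary artery clipping, PAC), taken at 1, 3 and 6 weeks at ages of 13, 15 and 18 weeks, and from sham mice taken at 3 weeks at 15 weeks of age. Left ventricles (LV) came from mice with a clip around the aorta (transaortic constriction, TAC) and from sham mice, both taken at 3 weeks at 15 weeks of age. Each of the 6 groups held 2 arrays, so n = 2 arrays per group throughout, and the labels do not say that the arrays of a group came from separate animals. The p-values therefore measure only the spread between these arrays, which may be technical. The 3 PAC times share the same 2 sham RV arrays, and age differs along with time after clipping.

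A dividing cell first licenses its origins by loading the MCM helicase, then makes deoxynucleotides and copies its DNA in S phase, and afterwards condenses its chromosomes, attaches them to a spindle at the kinetochores and splits in cytokinesis. The genes of S phase are driven largely by E2F factors, and those of mitosis by the MuvB complex with B-MYB and FOXM1, which acts through a CHR element, often beside CCAAT boxes bound by NF-Y. In the adult mouse heart cardiomyocytes rarely divide, whereas fibroblasts, endothelial cells and leukocytes can. A whole ventricle mixes all of these, so that more cells of a dividing type and more RNA per cell cannot be told apart here.

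Promoters of these genes were examined because the members moved together. RefSeq promoter windows of 300 bases (250 before the transcription start to 50 after it, build GRCm38.p6) were available for 39 of the 49 genes. The 6 shown here belong to Top2a (chr11:99024140-99024439, minus strand), Prc1 (chr7:80294201-80294500, plus strand), Ect2 (chr3:27153829-27154128, minus strand), Ccnb2 (chr9:70421505-70421804, minus strand), Mcm3 (chr1:20820263-20820562, minus strand) and Cenpf (chr1:189688037-189688336, minus strand). Top2a, Prc1 and Ect2 were among the members with the largest increases, Ccnb2 and Mcm3 stand for the mitotic cyclins and the S-phase helicase, and Cenpf is the member that fell. Each is written 5′ to 3′ on the strand of the gene, and the capitals mark every match to a searched motif on either strand. For Prc1 and Ect2, which have 2 windows each, the first is shown.
Top2a: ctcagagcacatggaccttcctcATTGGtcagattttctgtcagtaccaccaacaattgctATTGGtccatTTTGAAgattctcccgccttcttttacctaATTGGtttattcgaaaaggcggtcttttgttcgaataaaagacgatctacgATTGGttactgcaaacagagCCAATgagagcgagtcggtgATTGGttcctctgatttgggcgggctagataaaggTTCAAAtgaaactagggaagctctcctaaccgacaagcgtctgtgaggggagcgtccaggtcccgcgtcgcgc
Prc1: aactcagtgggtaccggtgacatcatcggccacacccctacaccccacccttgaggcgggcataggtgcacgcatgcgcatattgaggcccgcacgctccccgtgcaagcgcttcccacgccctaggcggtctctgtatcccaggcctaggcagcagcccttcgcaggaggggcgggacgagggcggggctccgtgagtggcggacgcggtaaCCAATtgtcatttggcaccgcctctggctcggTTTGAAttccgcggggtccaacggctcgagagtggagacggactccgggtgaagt
Ect2: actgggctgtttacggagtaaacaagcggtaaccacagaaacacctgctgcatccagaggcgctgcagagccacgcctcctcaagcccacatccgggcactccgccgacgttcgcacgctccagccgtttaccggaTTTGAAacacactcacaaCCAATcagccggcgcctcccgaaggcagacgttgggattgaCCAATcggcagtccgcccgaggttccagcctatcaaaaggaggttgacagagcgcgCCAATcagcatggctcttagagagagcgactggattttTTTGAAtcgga
Ccnb2: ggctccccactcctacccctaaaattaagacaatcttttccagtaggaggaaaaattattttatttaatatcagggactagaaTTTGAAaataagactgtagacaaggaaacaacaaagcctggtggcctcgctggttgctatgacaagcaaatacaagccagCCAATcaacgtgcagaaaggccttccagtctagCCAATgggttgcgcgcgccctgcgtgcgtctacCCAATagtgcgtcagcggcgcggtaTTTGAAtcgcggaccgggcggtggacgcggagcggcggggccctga
Mcm3: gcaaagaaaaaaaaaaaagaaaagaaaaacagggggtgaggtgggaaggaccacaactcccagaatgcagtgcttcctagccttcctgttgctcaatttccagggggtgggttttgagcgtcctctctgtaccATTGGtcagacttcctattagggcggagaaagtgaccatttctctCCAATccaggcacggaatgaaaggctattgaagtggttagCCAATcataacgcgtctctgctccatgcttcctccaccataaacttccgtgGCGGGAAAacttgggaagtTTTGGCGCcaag
Cenpf: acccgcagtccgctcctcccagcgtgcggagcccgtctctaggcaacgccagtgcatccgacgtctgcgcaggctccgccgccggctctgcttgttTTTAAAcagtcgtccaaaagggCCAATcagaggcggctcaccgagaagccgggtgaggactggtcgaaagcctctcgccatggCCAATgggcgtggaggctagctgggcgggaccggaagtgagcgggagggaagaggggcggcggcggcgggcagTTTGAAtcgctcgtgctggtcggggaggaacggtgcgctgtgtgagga

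The search covered the CCAAT box, the CHR forms TTTGAA and TTTAAA, and the E2F forms TTTGGCGC and TTTCCCGC and TTTGGCGG, on both strands, with no overlap between matches of different motifs. The CCAAT box was present in 78.6% of the 42 windows of member genes and in 37.4% of all 32851 windows. TTTGAA was present in 61.9% of the member windows and in 17.9% of all windows, and both motifs together in 54.8% and 6.95%. The other CHR form, TTTAAA, stood in 23.8% of the member windows and 13.2% of all windows. Of the 6 windows shown, that of Top2a held 6 CCAAT boxes, and those of Ect2, Ccnb2 and Mcm3 held 3 each. Of the 34 matches to TTTGAA, 24 lay within 50 bases of the start, and 61 of the 64 CCAAT boxes lay upstream of it. The window of Cenpf held both motifs too, as did those of Prc1, Ect2, Ccnb2 and Top2a. TTTGGCGC was found in 7.14% of the member windows, those of Mcm3, Mcm5 and Mcm6, and in 0.514% of all windows. TTTCCCGC was found in Mcm3, Mcm7 and Ncapg, and TTTGGCGG in Melk. These matches describe letters in a window and not sites of binding, and no test was made of the shares.

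**Figure D1:**
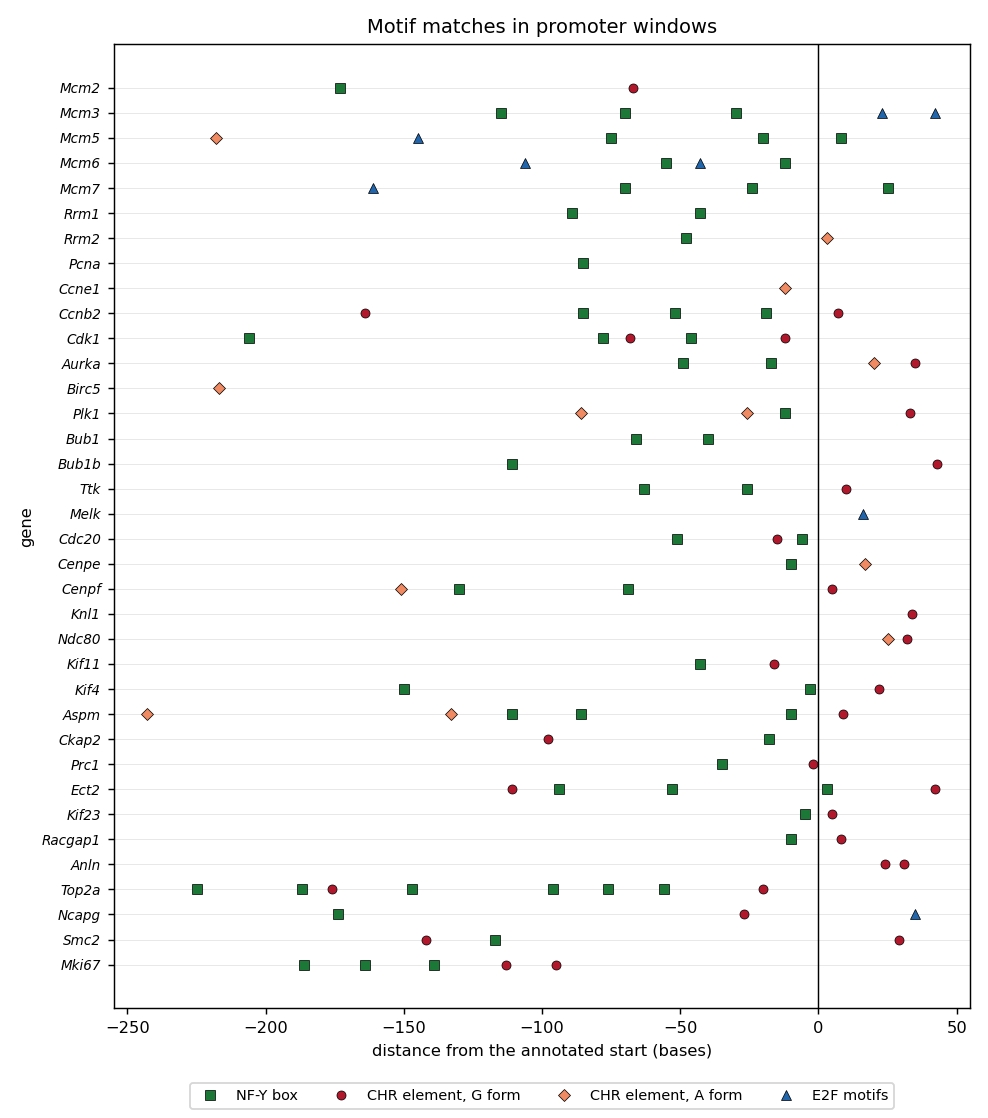
Positions of motif matches in the first promoter window of each member gene that has a match there; the x axis is the distance from the transcription start in bases and each row is a gene. Squares mark CCAAT boxes, circles TTTGAA, diamonds TTTAAA and triangles the E2F forms; the squares lie mostly upstream of the start, and 24 of the 34 TTTGAA matches over all windows lie within 50 bases of it.

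The values are log2 expression values as deposited, on which 1 unit is a doubling; changes are log2 differences ± the limma standard error, and a gene is said to have risen or fallen where its Benjamini-Hochberg adjusted p over all 19938 genes was under 0.05. The fit gives each gene 1 spread for all 6 groups, so its standard error is the same in every comparison of 2 groups. Where groups differ in spread, this error may be too small for the wider groups and too large for the tighter ones. The standard deviation of the 2 arrays was 0.91 in PAC at 1 week and 0.025 in sham RV for Bub1, and 0.72 and 0.097 for Prc1. Levels of different genes are not compared, since each probe set has its own response. As a mark of low signal, the median of the probe sets with no listed gene was taken on each array, which lay between 5.65 and 5.79. Of the 49 members, 21 lay above this mark on all 12 arrays, and Ttk and Ndc80 lay below it on all 12. Below the mark on both arrays were 2 members in PAC at 1 week, 8 at 3 weeks, 12 at 6 weeks and 19 in sham RV, and 9 in TAC and 19 in sham LV. Folds of such genes may be understated, and none is read as exact.

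One array stands apart. The second PAC array at 1 week was higher than its mate for 46 of 49 members, by a median of 0.68, and was the highest of all 12 arrays for 46 members. Its median over the members was 7.32, and that of its mate 6.65, against 5.75 and 5.83 in sham RV. The number that passed at 1 week is therefore given without it for each role, and members named with a change that then did not pass are marked. With the first array alone the median change of the members from sham RV was 0.64, with 49 of 49 above 0, and with the second alone it was 1.42, with 48 of 49 above 0.

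At 1 week after clipping, 37 of the 49 members rose against sham RV and none fell. Over all genes, 9.57% rose, 8.86% fell and 18.4% passed in either direction. The median change of the members was 1.03, against -0.05 for all genes, 48 of 49 were above 0 and 26 were at least 2-fold higher. In 47 members both PAC arrays lay above both sham RV arrays, which held for 26.4% of all genes. Among the 100 largest increases of the whole array were 20 members. The number that passed was 23 without the second PAC array at 1 week, 23 without the first sham RV array and 17 without the second sham RV array. It was 11 in a fit to the 4 arrays compared alone. No share of all genes is given for that fit or for those without a sham RV array. Over all genes, 1.11% rose without the second PAC array at 1 week.

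**Figure D2:**
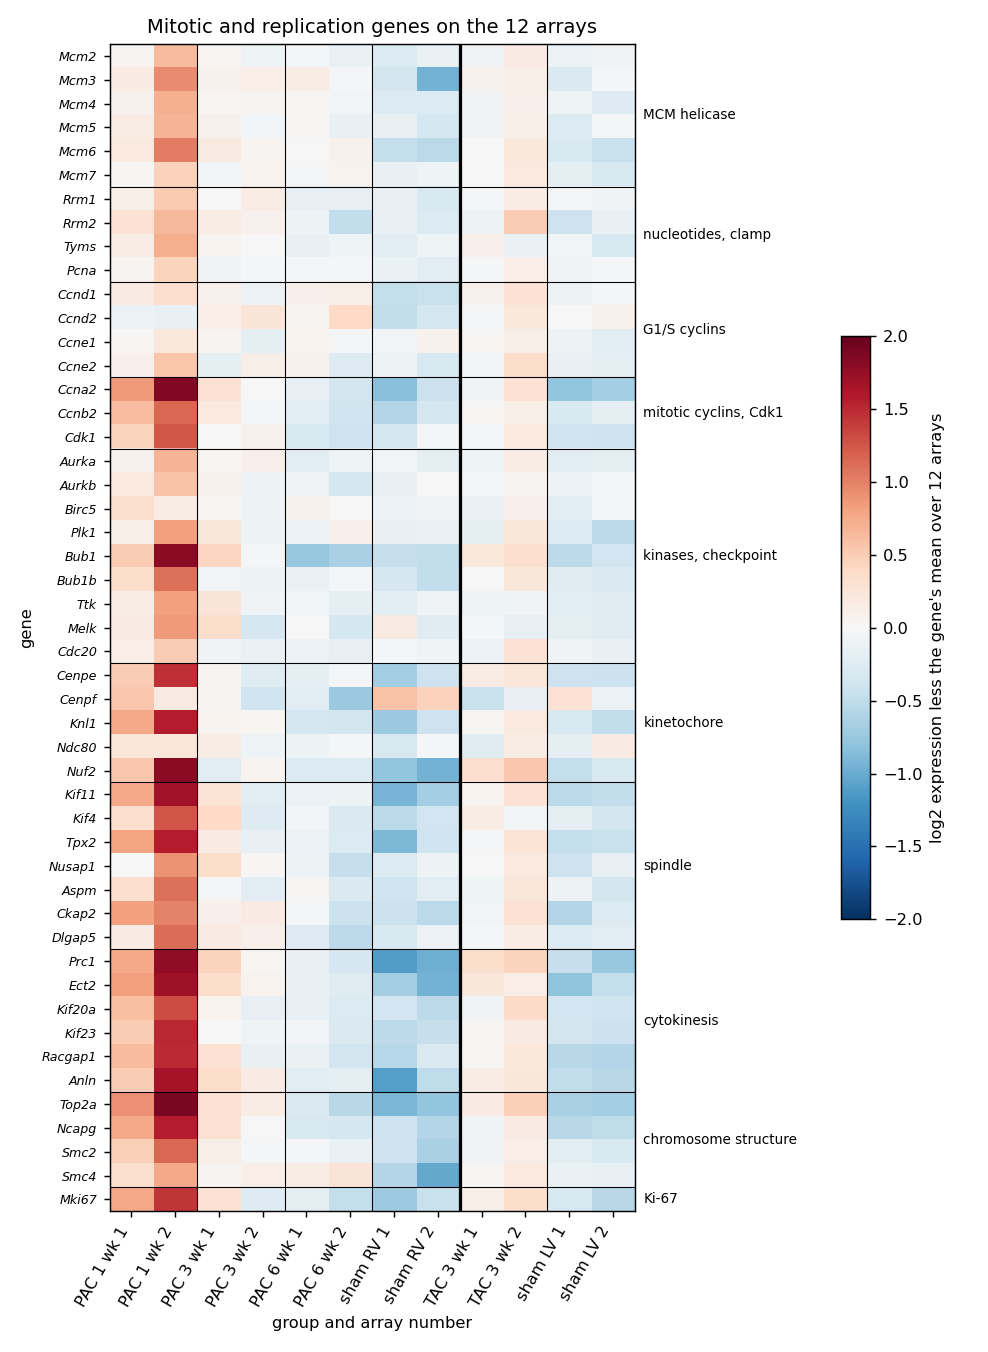
Log2 expression of each member gene (rows, grouped by role) on each of the 12 arrays (columns), less the mean of that gene over the 12 arrays; red is above and blue below that mean. The columns of PAC at 1 week are the reddest, the second more than the first, and Cenpf in the kinetochore group is high in sham RV and on the first PAC array at 1 week.

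The MCM2-7 complex is the helicase that unwinds DNA at the replication fork, and 5 of its 6 subunits rose at 1 week, with a median change of 0.67 over the 6. Mcm6 had 7.47 and 8.30 in PAC at 1 week, against 6.79 and 6.73 in sham RV, a change of 1.12 ± 0.20 (adjusted p = 0.0113). Mcm3 had 6.99 and 7.77 in PAC, against 6.46 and 5.87 in sham RV, a change of 1.22 ± 0.24 (adjusted p = 0.0133). Mcm4 had 7.08 and 7.70 in PAC, against 6.71 and 6.72 in sham RV, a change of 0.68 ± 0.16 (adjusted p = 0.0240). In all 3 the PAC arrays lay above the sham RV arrays without overlap. Mcm5 (0.67) and Mcm2 (0.55) rose as well, while Mcm7 had 0.37 ± 0.14 (adjusted p = 0.0754). Without the second PAC array at 1 week 1 of the 6 subunits passed, Mcm6, and the changes of Mcm3 and Mcm4 were 0.82 (adjusted p = 0.0719) and 0.36 (adjusted p = 0.12). At 3 and 6 weeks no subunit passed, and both PAC arrays lay above both sham RV arrays for all 6 subunits at each time, as they did for 25.5% of all genes at 3 weeks and 26% at 6 weeks. Mcm6 had 7.45 and 7.32 at 3 weeks and 7.28 and 7.36 at 6 weeks, and Mcm3 had 6.92 and 6.96 at 3 weeks and 6.97 and 6.79 at 6 weeks.

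The genes for nucleotide supply and the sliding clamp rose by less, all 4 of them, with a median change of 0.56. Rrm1, the large subunit of ribonucleotide reductase, had 8.68 and 9.09 in PAC at 1 week, against 8.42 and 8.26 in sham RV, a change of 0.54 ± 0.13 (adjusted p = 0.0228). Pcna, the clamp that holds polymerases on DNA, had 9.15 and 9.54 in PAC, against 8.97 and 8.87 in sham RV, a change of 0.43 ± 0.12 (adjusted p = 0.0358). Its further probe set averaged 9.36 in PAC and 8.92 in sham RV. Tyms, thymidylate synthase, had 6.04 and 6.62 in PAC, against 5.69 and 5.81 in sham RV, a change of 0.58 ± 0.17 (adjusted p = 0.0406). Rrm2, the regulated small subunit of the reductase, rose by 0.68. These are small changes, and none of the 4 passed without the second PAC array at 1 week, nor did Rrm1 and Pcna after cyclic loess scaling. None of the 4 passed at 3 or 6 weeks, where the median changes were 0.23 and 0.04.

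Of the cyclins that carry cells from G1 into S phase, Ccnd1 rose at all 3 times and Ccnd2 at the later ones. Ccnd1, cyclin D1, had 9.78 and 9.94 in PAC at 1 week, 9.69 and 9.5 at 3 weeks and 9.71 and 9.73 at 6 weeks, against 9.13 and 9.16 in sham RV. Its changes were 0.72 ± 0.10 (adjusted p = 0.00605), 0.45 ± 0.10 (adjusted p = 0.0391) and 0.57 ± 0.10 (adjusted p = 0.0151), of which the second did not pass after cyclic loess scaling. Ccnd2, cyclin D2, had 11.09 and 11.06 in PAC at 1 week, 11.33 and 11.46 at 3 weeks and 11.26 and 11.60 at 6 weeks, against 10.70 and 10.84 in sham RV. Its change at 1 week was 0.30 ± 0.12 (adjusted p = 0.103), and it rose by 0.62 ± 0.12 at 3 weeks (adjusted p = 0.0306) and by 0.65 ± 0.12 at 6 weeks (adjusted p = 0.0169). It is the 1 member of the 49 with its highest RV mean at 6 weeks, and it was the 1 member with a change above 0 from 1 week to 3 weeks and from 1 week to 6 weeks. Ccne2, which partners Cdk2, had 5.72 and 6.17 in PAC at 1 week, against 5.51 and 5.31 in sham RV, a change of 0.53 ± 0.19 that did not pass (adjusted p = 0.0675). Ccne1 differed by 0.10 ± 0.11 at 1 week.

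The mitotic cyclins and Cdk1, the kinase that drives entry into mitosis, all rose at 1 week, with a median change of 1.35 over these 3 genes. Ccna2, cyclin A2, had 7.18 and 8.18 in PAC, against 5.49 and 5.89 in sham RV, a change of 1.99 ± 0.27 (adjusted p = 0.00431). Ccnb2, cyclin B2, had 6.78 and 7.32 in PAC, against 5.58 and 5.83 in sham RV, a change of 1.35 ± 0.16 (adjusted p = 0.0031). Cdk1 had 6.73 and 7.52 in PAC, against 5.94 and 6.25 in sham RV, a change of 1.03 ± 0.21 (adjusted p = 0.0148). In each the lower PAC array lay above the higher sham RV array. Ccna2 and Ccnb2 passed without the second PAC array at 1 week, and Cdk1 then had 0.63 (adjusted p = 0.0634). Ccna2 had 6.64 and 6.33 at 3 weeks and 6.16 and 5.97 at 6 weeks, and Cdk1 had 6.26 and 6.36 at 3 weeks and 5.96 and 5.87 at 6 weeks, where it overlapped the sham RV arrays. None of the 3 passed at 3 or 6 weeks.

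Of the 9 genes of mitotic kinases and the spindle checkpoint, which holds chromosome separation until all kinetochores are attached, 4 rose at 1 week, with a median change of 0.55. Bub1b, which encodes the checkpoint protein BubR1, had 6.38 and 7.14 in PAC, against 5.69 and 5.54 in sham RV, a change of 1.15 ± 0.19 (adjusted p = 0.0083). Bub1, a checkpoint kinase, had 5.77 and 7.06 in PAC, against 4.80 and 4.76 in sham RV, a change of 1.63 ± 0.31 (adjusted p = 0.0124). Ttk, the checkpoint kinase Mps1, had 4.58 and 5.25 in PAC, against 4.22 and 4.36 in sham RV, a change of 0.63 ± 0.18 (adjusted p = 0.0413), all of it below the mark of low signal. Aurkb, the kinase of the chromosomal passenger complex, rose by 0.46 ± 0.14 (adjusted p = 0.0456). The other 5 did not pass: Plk1 had 0.61 ± 0.22, Melk 0.55 ± 0.25, Aurka 0.51 ± 0.16, Cdc20 0.37 ± 0.14 and Birc5 0.33 ± 0.11, with adjusted p between 0.0541 and 0.136. In each of them both PAC arrays lay above both sham RV arrays. Bub1 and Bub1b passed without the second PAC array at 1 week; Ttk then had 0.29 (adjusted p = 0.244) and Aurkb 0.27 (adjusted p = 0.28). At 6 weeks 4 of the 9 were above sham RV and none passed. Bub1 then had 4.50 and 4.62, below both sham RV arrays, a change of -0.22 ± 0.31 (adjusted p = 0.648). All of these values lay below the mark of low signal, so the difference is not read as a drop.

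The kinetochore genes divided. Knl1, Nuf2 and Cenpe, which build the outer kinetochore and tether it to microtubules, rose at 1 week. Knl1 had 6.15 and 6.96 in PAC, against 4.65 and 4.98 in sham RV, a change of 1.74 ± 0.21 (adjusted p = 0.0031). Nuf2 had 6.53 and 7.80 in PAC, against 5.21 and 5.05 in sham RV, a change of 2.04 ± 0.30 (adjusted p = 0.00634). Cenpe, a kinetochore motor, had 5.52 and 6.47 in PAC, against 4.32 and 4.60 in sham RV, a change of 1.54 ± 0.24 (adjusted p = 0.00736). These 3 passed without the second PAC array at 1 week too. Ndc80, the partner of Nuf2, was dim on all 12 arrays and had 0.41 ± 0.16 (adjusted p = 0.0879). Cenpf, a large protein of the outer kinetochore and nuclear matrix, went the other way against sham RV. It had 7.63 and 7.28 in PAC at 1 week, 7.15 and 6.69 at 3 weeks and 6.88 and 6.34 at 6 weeks, against 7.66 and 7.55 in sham RV. In sham LV it had 7.38 and 6.97, below both sham RV arrays (sham RV against sham LV 0.43 ± 0.22, adjusted p = 0.287). Within PAC its means ran 1 week over 3 weeks over 6 weeks, the order of 40 of the 49 members. Its changes from sham RV were -0.15 ± 0.22 (adjusted p = 0.629), -0.68 ± 0.22 (adjusted p = 0.0774) and -0.99 ± 0.22 (adjusted p = 0.0250). Cenpf was thus the 1 member that fell at 6 weeks and the 1 member whose highest RV mean was in sham RV. It no longer passed without the second PAC array at 6 weeks or without either sham RV array.

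Of the 7 genes of spindle motors and spindle-binding proteins, 6 rose at 1 week, with a median change of 1.25. Kif11, the motor that pushes spindle poles apart, had 7.11 and 8.04 in PAC, against 5.43 and 5.68 in sham RV, a change of 2.03 ± 0.25 (adjusted p = 0.0032). Tpx2, which activates Aurora A and nucleates spindle microtubules, had 7.04 and 7.82 in PAC, against 5.34 and 5.84 in sham RV, a change of 1.84 ± 0.24 (adjusted p = 0.0035). Ckap2, a microtubule-binding protein, had 6.71 and 6.88 in PAC, against 5.47 and 5.34 in sham RV, a change of 1.39 ± 0.16 (adjusted p = 0.0031). The PAC arrays of Ckap2 lay closer to each other than those of Kif11 and Tpx2. Kif4 (1.25), Aspm (1.03) and Dlgap5 (0.86) rose too, and Nusap1 had 0.64 ± 0.25 (adjusted p = 0.0853). Kif11, Tpx2 and Ckap2 passed without the second PAC array at 1 week, and Kif4, Aspm and Dlgap5 did not, with adjusted p of 0.1, 0.101 and 0.157. Ckap2 was the 1 gene of the 7 that also rose at 3 weeks, by 0.62 ± 0.16 (adjusted p = 0.0480), with 5.99 and 6.05.

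All 6 cytokinesis genes rose at 1 week, with a median change of 1.69, the highest among the groups with more than 1 gene. Prc1, which bundles microtubules of the central spindle, had 6.72 and 7.74 in PAC at 1 week, 6.4 and 6.01 at 3 weeks and 5.82 and 5.63 at 6 weeks, against 4.85 and 4.99 in sham RV. It rose by 2.31 ± 0.26 at 1 week (adjusted p = 0.0031), and by 1.29 ± 0.26 at 3 weeks (adjusted p = 0.0309), and had 0.81 ± 0.26 at 6 weeks (adjusted p = 0.0745). No array of PAC overlapped sham RV at any time, and both sham RV arrays lay below the mark of low signal, so that the changes may be understated. Ect2, the exchange factor that activates RhoA at the cleavage furrow, had 6.95 and 7.83 in PAC at 1 week and 6.49 and 6.20 at 3 weeks, against 5.44 and 5.18 in sham RV. It rose by 2.08 ± 0.23 at 1 week (adjusted p = 0.0031) and by 1.04 ± 0.23 at 3 weeks (adjusted p = 0.0357). Kif20a, a motor of the central spindle, had 6.62 and 7.32 in PAC at 1 week, against 5.64 and 5.51 in sham RV, a change of 1.40 ± 0.20 (adjusted p = 0.00605). Anln (1.88), Racgap1 (1.5) and Kif23 (1.49), which build the contractile ring and the centralspindlin complex, completed the group. All 6 passed without the second PAC array at 1 week as well.

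The 4 genes of chromosome structure rose at 1 week, with a median change of 1.5. Top2a, the topoisomerase that untangles sister chromatids, had 7.85 and 8.82 in PAC at 1 week, 7.23 and 7.08 at 3 weeks and 6.64 and 6.37 at 6 weeks, against 6.02 and 6.15 in sham RV. It rose by 2.25 ± 0.24 at 1 week (adjusted p = 0.00294) and by 1.07 ± 0.24 at 3 weeks (adjusted p = 0.0370), and had 0.42 ± 0.24 at 6 weeks (adjusted p = 0.262). Its further probe set averaged 3.35 in PAC at 1 week and 3.01 in sham RV, far below the mark of low signal. Ncapg, a condensin subunit, had 6.11 and 6.93 in PAC at 1 week, against 4.94 and 4.77 in sham RV, a change of 1.66 ± 0.21 (adjusted p = 0.0035). Smc4, a core subunit shared by both condensins, rose at all 3 times. It had 8.45 and 8.89 in PAC at 1 week, 8.19 and 8.27 at 3 weeks and 8.29 and 8.39 at 6 weeks, against 7.55 and 7.11 in sham RV. Its changes were 1.34 ± 0.16 (adjusted p = 0.0031), 0.90 ± 0.16 (adjusted p = 0.0247) and 1.01 ± 0.16 (adjusted p = 0.0103). Smc2, its partner, rose by 1.34 ± 0.18 at 1 week and had 0.45 ± 0.18 at 6 weeks (adjusted p = 0.129). All 4 passed at 1 week without the second PAC array of that time.

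Mki67, which encodes the Ki-67 antigen used in pathology to count cycling cells, had 7.76 and 8.44 in PAC at 1 week, 7.29 and 6.74 at 3 weeks and 6.82 and 6.52 at 6 weeks, against 6.28 and 6.56 in sham RV. It rose by 1.68 ± 0.23 at 1 week (adjusted p = 0.00487), and by 1.34 without the second PAC array of that time (adjusted p = 0.029). At 3 weeks it had 0.60 ± 0.23 (adjusted p = 0.121), and at 6 weeks the lower PAC array lay within the sham RV arrays.

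**Figure D3:**
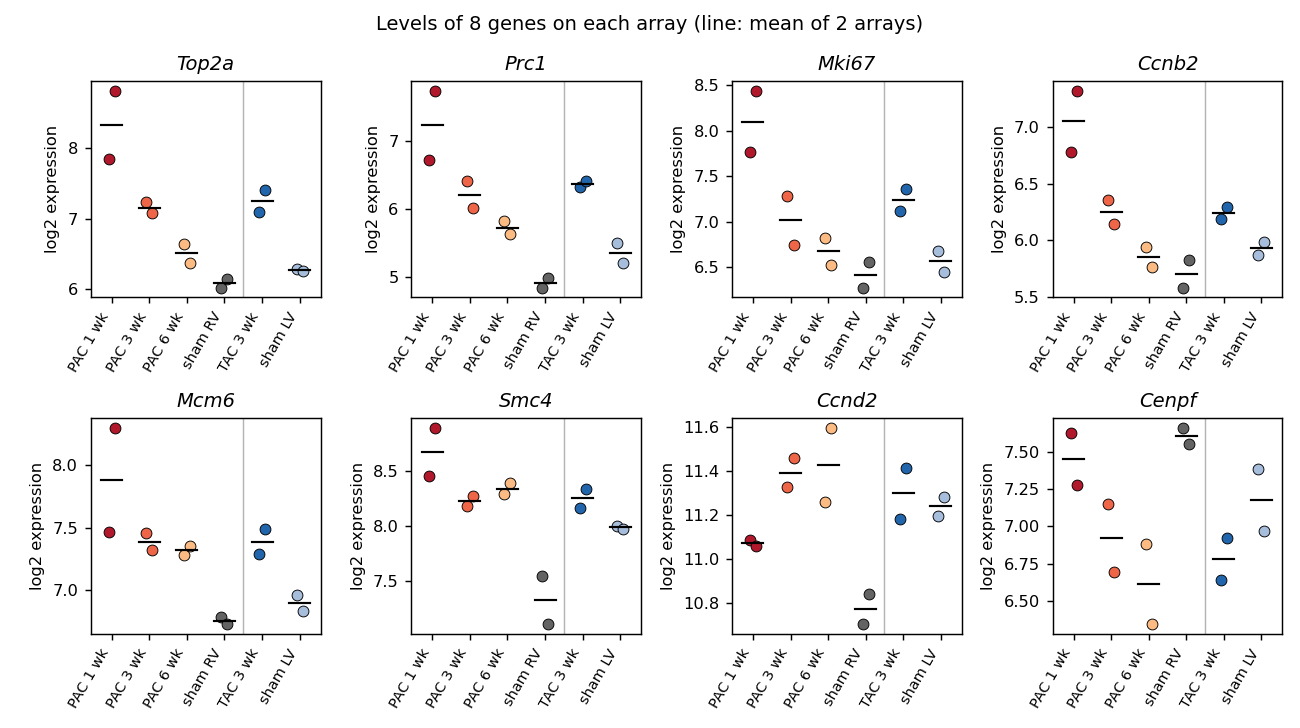
Log2 expression of 8 genes on each array (points) with the mean of 2 arrays (lines), by group. Top2a, Prc1, Mki67, Ccnb2 and Mcm6 are highest in PAC at 1 week, Smc4 stays above sham RV at 6 weeks, Ccnd2 is higher at 3 and 6 weeks than at 1 week, and Cenpf is lower at 3 and 6 weeks than in sham RV.

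At 3 weeks 7 members rose (Smc4, Ccnd2, Prc1, Ect2, Top2a, Ccnd1 and Ckap2) and none fell, where 3.22% of all genes rose, 2.54% fell and 5.76% passed in either direction. The median change was 0.40, and 39 of 49 members had both PAC arrays above both sham RV arrays, against 25.5% of all genes. The number that passed was 0 without the second PAC array at 3 weeks or the second sham RV array, 1 without the first sham RV array, 2 without the first PAC array at 3 weeks or 1 of the TAC arrays, and 3 after removal of 1 sham LV array. More members passed without either PAC array at 1 week, where that group added nothing to the shared spread. At 6 weeks 3 members rose, Smc4, Ccnd1 and Ccnd2, where 5.52% of all genes rose, and Cenpf fell, where 3.73% did. The share of members that passed in either direction, 4 of 49, was near the 9.25% of all genes. The median change was 0.18, 39 of 49 were above 0, and 28 had both PAC arrays above both sham RV arrays, against 26% of all genes. Fewer or no members passed without the second PAC array at 6 weeks or without either sham RV array, and more did without either PAC array at 1 week. No share of all genes is given for these fits.

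**Figure D4:**
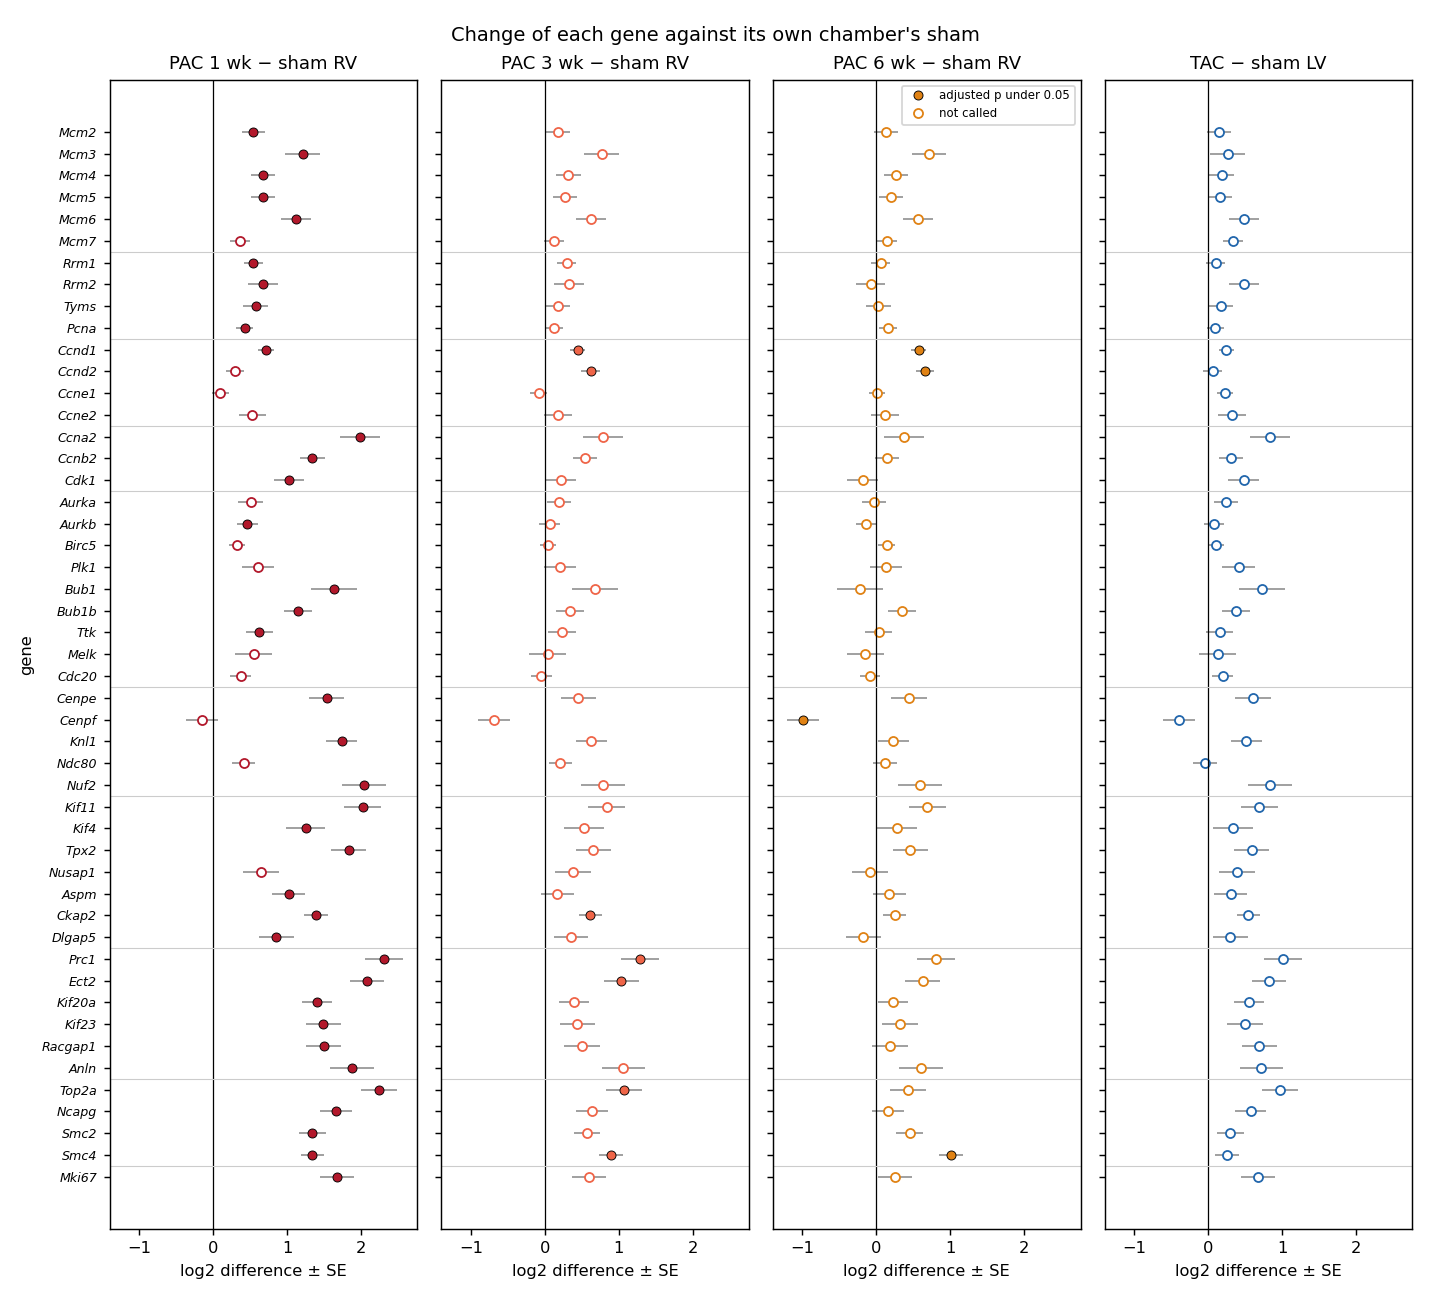
Log2 difference ± SE of each member gene (rows) in 4 comparisons; filled points passed at an adjusted p under 0.05 and open points did not. Filled points number 37 in PAC at 1 week, 7 at 3 weeks, 4 at 6 weeks and 0 in TAC.

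Along the course the means of 40 of 49 members were ordered 1 week over 3 weeks over 6 weeks, and 30 of these also stood above sham RV at 6 weeks. Of the 4 RV groups, PAC at 1 week held the highest mean for 47 members. Over the 37 that rose at 1 week, the median changes from sham RV were 1.34 at 1 week, 0.53 at 3 weeks and 0.26 at 6 weeks. The change at 3 weeks was a median of 40.5% of that at 1 week, from 14.5% for Aurkb to 66.9% for Smc4. These 37 were picked for having passed at 1 week, so that a larger change at 1 week than later is partly built in. Over all 49 members the median changes were 1.03, 0.40 and 0.18. All of these changes share the same sham RV arrays. The decline itself was tested between PAC arrays. From 1 week to 6 weeks 5 members fell and none rose, where 0.0953% of all genes passed in either direction. Top2a fell by 1.82 ± 0.24, Knl1 by 1.51 ± 0.21, Ncapg by 1.51 ± 0.21, Ccnb2 by 1.2 ± 0.16 and Ckap2 by 1.15 ± 0.16, each with an adjusted p of 0.0391. The arrays at 6 weeks were 5.06 and 5.02 for Knl1, 5.03 and 5.0 for Ncapg, 5.94 and 5.77 for Ccnb2 and 5.84 and 5.46 for Ckap2. In 46 of 49 members both arrays at 6 weeks lay below both at 1 week, which held for 17.2% of all genes. The number that passed rose without the first PAC array at 1 week, which left only the array that stands apart, and fell without the second. No share of all genes is given for these fits. Without the first PAC array at 6 weeks 2 passed, and without the second, or without any 1 of the PAC arrays at 3 weeks, the TAC arrays or the sham arrays, 0 passed. From 1 week to 3 weeks no member passed in limma, where 0.0552% of all genes did, though 48 of 49 were lower. At an unadjusted p under 0.05 in either direction there were 35 of the 49, among them Ccnd2, which was higher (0.32), and 1586 of all 19938 genes. Some members passed without the first PAC array at 1 week, which left only the array that stands apart. From 3 to 6 weeks no member passed in limma, where 0.0201% of all genes did, and 6 had an unadjusted p under 0.05, as did 953 of all genes.

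Aortic constriction was the other obstruction, measured in the LV at 3 weeks. No member passed in TAC against sham LV in limma, and 0% of all genes did, with adjusted p of 0.985 or more for the members. At an unadjusted p under 0.05 there were 21 of 49 members, and 963 of all 19938 genes. The median change was 0.33, 47 of 49 were above 0, and in 39 both TAC arrays lay above both sham LV arrays, against 18.2% of all genes. Prc1 had 6.32 and 6.42 in TAC, against 5.50 and 5.21 in sham LV, a change of 1.01 ± 0.26. Top2a had 7.09 and 7.40 in TAC, against 6.28 and 6.26 in sham LV, a change of 0.98 ± 0.24. By the size of the measured difference 20 members were among the first 100 increases of all 19938 genes; Prc1 lay below the mark of low signal on both sham LV arrays, so its place in that order is not exact. Ccna2 (0.84), Nuf2 (0.84), Ect2 (0.82) and Bub1 (0.73) had the next largest changes. All of these also lay below the mark of low signal on both sham LV arrays, and Bub1 on both TAC arrays, so their places are not exact either. Cenpf had 6.64 and 6.92 in TAC, against 7.38 and 6.97 in sham LV, a change of -0.39 ± 0.22, with the same sign as in PAC.

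The 2 obstructions were compared at 3 weeks in separate ways. In PAC against TAC no member passed, where 0.0201% of all genes did, and the median difference was -0.02. An unadjusted p under 0.05 was found there for 0 members and for 1470 of all 19938 genes. In the difference of the effects (PAC less sham RV, minus TAC less sham LV) no member passed, nor did any gene (0%), and it ran from -0.31 for Ccne1 to 0.64 for Smc4. Unadjusted p-values under 0.05 were found for 2381 of all 19938 genes and for 2 of 49 members, a smaller share. The 2 were Ccnd2 (0.56 ± 0.17, adjusted p = 0.366) and Smc4 (0.64 ± 0.23, adjusted p = 0.375). The standard errors leave room for differences of this size. In sham RV against sham LV no member passed, where 0.411% of all genes did, and the median difference was -0.10. An unadjusted p under 0.05 was found for 3 of 49 members, and for 4123 of all 19938 genes, which is a larger share. These 3 members had lower values in sham RV on both arrays. Smc4 had 7.55 and 7.11 in sham RV, against 8.0 and 7.98 in sham LV (-0.66 ± 0.16, adjusted p = 0.0747). Ccnd1 had 9.13 and 9.16 in sham RV, against 9.51 and 9.59 in sham LV (-0.40 ± 0.10, adjusted p = 0.0854). Ccnd2 had 10.70 and 10.84 in sham RV, against 11.19 and 11.28 in sham LV (-0.47 ± 0.12, adjusted p = 0.0905). These are the same 3 genes that rose against sham RV at 6 weeks, and both comparisons rest on the same 2 sham RV arrays. Against sham LV, both PAC arrays at 6 weeks lay higher for Smc4 and Ccnd1, and for Ccnd2 the lower PAC array lay between the sham LV arrays.

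Other genes of the cell cycle were counted in 6 lists of 134 genes, of which 128 were measured. At 1 week 9.57% of all genes rose and 8.86% fell. Of 50 further mitosis genes 26 rose at 1 week and 1 fell, with a median change of 0.64. Arhgap11a, a RhoA regulator of cytokinesis, rose by 1.92 ± 0.24, Ncapg2, a condensin II subunit, by 1.56 ± 0.22, Depdc1a by 1.83 ± 0.28 and Kif18a, a motor that dampens chromosome movement, by 1.32 ± 0.18. Pttg1, which encodes securin, fell by 0.52 ± 0.11 (adjusted p = 0.0156), with 9.02 and 8.70 in PAC, against 9.36 and 9.39 in sham RV. Of 33 genes of origin licensing and replication 9 rose and none fell, with a median of 0.25. They include Dbf4, the activator of the Cdc7 kinase (1.15 ± 0.16), Prim1, a primase subunit (0.91 ± 0.19), Pola1, the catalytic subunit of polymerase alpha (0.68 ± 0.10), and Rfc3, a clamp loader (0.55 ± 0.10). Of 12 genes of recombination and checkpoint 4 rose: Chek1 by 1.38 ± 0.19, Atad2 by 1.27 ± 0.14, Clspn by 0.64 ± 0.16 and Blm by 0.63 ± 0.10. Without the second PAC array at 1 week, where 1.11% of all genes rose, 10 of the 50 mitosis genes, 2 of the 33 and 2 of the 12 rose and none of them fell. Of the genes named here, Pttg1, Prim1, Rfc3, Clspn and Blm then did not pass.

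Among 18 transcription factors and pocket proteins of the cell cycle 6 rose at 1 week and none fell, with a median of 0.24. Those with the smallest p were Rbl1, the pocket protein p107 (0.94 ± 0.15), E2f3, an activating E2F (0.66 ± 0.14), and Lin9 and Lin54 of the MuvB complex (0.52 ± 0.11 and 0.40 ± 0.09). Of 9 further cyclins and cyclin-dependent kinases 4 rose: Cdk6 by 0.65 ± 0.11, Ccnf by 0.59 ± 0.13, Cdk2 by 0.49 ± 0.08 and Cdk4 by 0.41 ± 0.09. Of 6 inhibitors of these kinases, Cdkn2c, which encodes p18, rose by 0.68 ± 0.14 with 7.76 and 7.89 in PAC, against 7.37 and 6.92 in sham RV. Cdkn2d, which encodes p19, rose by 0.35 ± 0.10, and Cdkn2a fell by 0.40 ± 0.10 with 6.29 and 6.10 in PAC, against 6.65 and 6.55 in sham RV. Rbl1 and Cdk2 passed without the second PAC array at 1 week, and the other 3 factors, 3 kinase or cyclin genes and 3 inhibitors named here did not. At 3 weeks 7 of the 128 genes rose, where 3.22% of all genes did. At 6 weeks 3 of 128 rose, Kif18a (0.91 ± 0.18), Atad2 (0.62 ± 0.14) and Pola1 (0.47 ± 0.10), where 5.52% of all genes did.

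Markers of some other cell types moved with the members at 1 week, when 9.57% of all genes rose, and others did not. The smooth muscle and pericyte list had medians of 8.48 and 8.43 in PAC, against 8.61 and 8.73 in sham RV. Its genes went both ways: Acta2 averaged 11.67 in PAC and 10.98 in sham RV, and Myh11 8.32 and 8.61. The erythroid list had medians of 5.47 and 5.74 in PAC, against 5.79 and 5.79 in sham RV. All 8 macrophage markers rose, with a median of 8.07 and 8.90 over the list in PAC, against 7.78 and 7.68 in sham RV. Of 8 fibroblast markers 6 rose, and their median was 10.42 and 12.06 in PAC, against 9.35 and 9.37 in sham RV. Of 8 endothelial markers 3 rose and of 6 atrial muscle markers all 6, with atrial medians of 9.06 and 10.76 in PAC, against 7.39 and 6.3 in sham RV. None of 8 cardiomyocyte markers passed, with medians of 13.52 and 13.44 in PAC, against 13.49 and 13.52 in sham RV. Myl2, the ventricular light chain, averaged 13.51 in PAC at 1 week and 13.64 in sham RV; such levels near the top of the array's range leave little room to show a change. The median of the T and B cell list stood near the mark of low signal, at 5.51 and 5.48 in PAC, against 5.74 and 5.66 in sham RV. Not all of its genes were dim or moved alike: Ptprc averaged 8.01 in PAC and 7.45 in sham RV, and Cd3e 6.24 and 6.68. The second PAC array at 1 week, the highest for 46 members, was also the higher of its pair in the fibroblast, macrophage and atrial lists. The mesothelial markers, of which 1 of 6 rose at 1 week, ran the other way within the pair: their median was 7.69 and 7.21 in PAC at 1 week, 6.60 and 6.87 at 3 weeks and 6.35 and 5.96 at 6 weeks, against 7.07 and 6.44 in sham RV. Without the second PAC array at 1 week 4 of 8 fibroblast, 1 of 8 macrophage, 0 of 8 endothelial, 1 of 6 atrial and 1 of 6 mesothelial markers rose. At 3 weeks 0 of 8 macrophage and 5 of 8 fibroblast markers rose, and at 6 weeks 0 and 2. The median change of the fibroblast list was 1.65 at 1 week, 1.51 at 3 weeks and 1.06 at 6 weeks, that of the macrophage list 0.85, 0.43 and 0.14, and that of the members 1.03, 0.40 and 0.18, all against the same sham RV arrays. The part of these cell types in the members' changes was not tested.

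**Figure D5:**
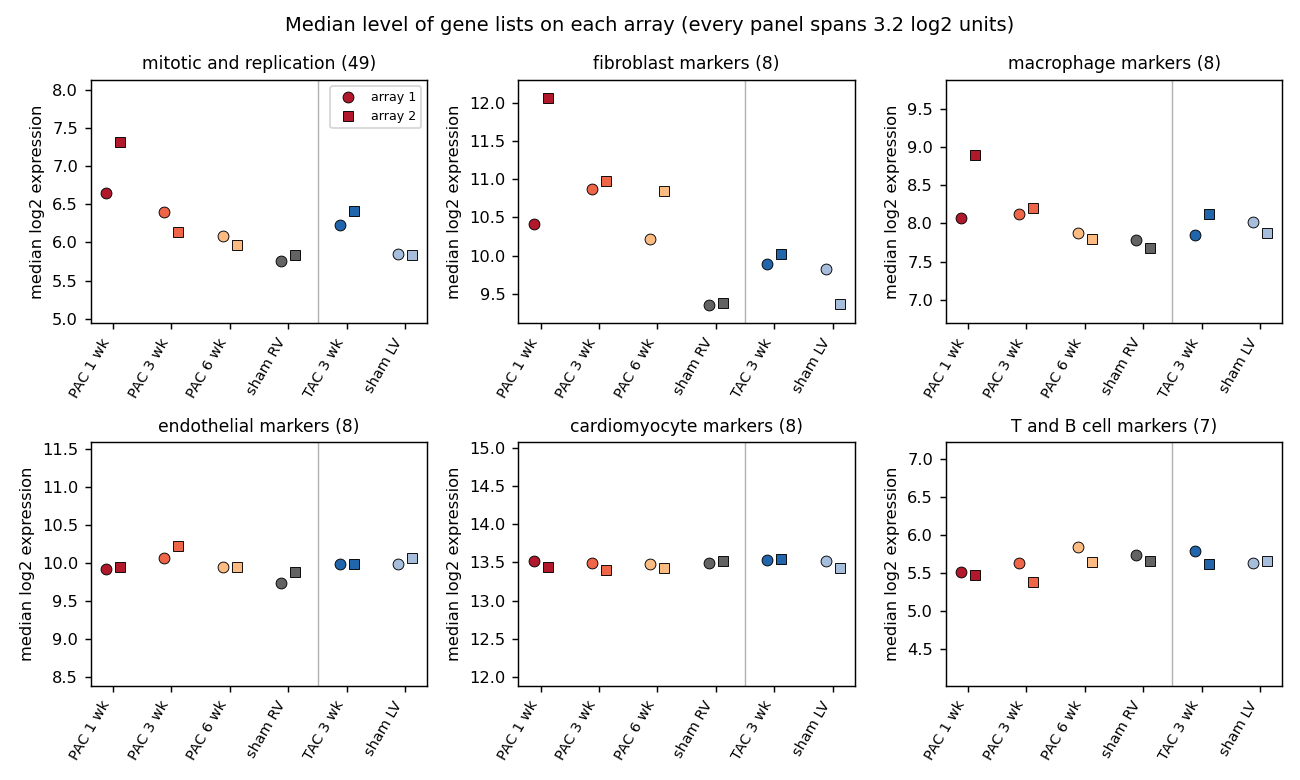
Median log2 expression of the 49 member genes and of 5 marker lists on each array, by group; circles are the first and squares the second array, and each panel spans the same range. The second PAC array at 1 week is the highest for the members and for the fibroblast and macrophage markers, while cardiomyocyte markers stay between 13.41 and 13.55 on all 12 arrays.

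Among members with a promoter window, the 24 with TTTGAA had a median change of 1.34 at 1 week, with 19 that rose, and the 15 without it had 0.64, with 10 that rose. The 30 with a CCAAT box had a median of 1.18, with 25 that rose, and the 9 without it 0.58, with 4 that rose. For the other CHR form, TTTAAA, the order was the opposite: the 10 with it had a median of 0.56, with 4 that rose, and the 29 without it 1.34, with 25 that rose. No test was made of these differences, and the motifs are not spread evenly over the roles.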

How the data were processed

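RNA from 12 ventricle samples was hybridised to Affymetrix whole-transcript arrays. The authors deposited log2 expression values, made with RMA in Affymetrix Power Tools per the submitters' processing notes; software version and genome build were not given in the sources used here. Of 35556 probe sets, 21789 carried a single gene in GEO's platform annotation, which gave 19938 genes after the probe set with the highest mean was kept for the 999 genes with several. No further scaling was applied. Arrays give no read depth, and their number, 2 per group, limits the precision; an exact permutation test of 2 against 2 cannot go below p = 0.33. All 12 arrays entered a limma fit (version 3.58.1, R 4.3.3) with a mean for each group (6 residual and 4.6 prior degrees of freedom), for 10 comparisons, with Benjamini-Hochberg adjustment over all genes and a threshold of 0.05. The scripts were tested on simulated data.

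The members and lists were chosen with earlier results of these data known. Named with values on each array are up to 3 members per role with the smallest p in PAC at 1 week, those that passed in other comparisons, and any that passed in the opposite direction; of other lists, up to 4 genes with the smallest p, and all cyclins, kinases and inhibitors that passed. Alternatives were cyclic loess scaling, the mean over probe sets, a filter on dim genes, a replicate-number block, a trended and robust prior, a fit restricted to the groups compared, and omission of single arrays. Promoter windows are from RefSeq (GRCm38.p6).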

Additional observations from a re-analysis of the deposited data

Results flagged for a closer look

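Members whose level in PAC at 6 weeks differed from that in PAC at 1 week, by limma's test of that difference, were Top2a (-1.82, with 6.64 and 6.37 at 6 weeks and 7.85 and 8.82 at 1 week), Knl1 (-1.51, with 5.06 and 5.02 at 6 weeks and 6.15 and 6.96 at 1 week), Ncapg (-1.51, with 5.03 and 5.0 at 6 weeks and 6.11 and 6.93 at 1 week), Ccnb2 (-1.2, with 5.94 and 5.77 at 6 weeks and 6.78 and 7.32 at 1 week) and Ckap2 (-1.15, with 5.84 and 5.46 at 6 weeks and 6.71 and 6.88 at 1 week). They stand here because the same operation gave different levels at the 2 times. The median over all members was -0.80. Groups of 2 arrays are too small for a test of single outlying arrays.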

How the results depend on the processing

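With genes under the median level left out, the number of members that passed was 11 in PAC at 1 week, 4 at 3 weeks, 2 from 1 to 6 weeks and 3 in sham RV against sham LV, since dim members leave the test. In a fit to only the arrays compared it was 11 at 1 week, 19 at 3 weeks, 9 at 6 weeks and 0 from 1 to 6 weeks. The shares of all genes in these fits are not given, so the counts tell only how far the calls depend on the fit. A trended and robust prior gave 10 from 1 to 6 weeks and 3 in sham RV against sham LV; the cause was not tested. Leaving out each array gave 17 to 44 at 1 week, 0 to 21 at 3 weeks, 0 to 14 at 6 weeks, 0 to 29 from 1 to 3 weeks, 0 to 34 from 1 to 6 weeks and 0 to 1 in sham RV against sham LV; where a group kept 1 array, it was assumed to vary like the others. The labels do not say whether replicate numbers pair the samples, nor whether sham RV and sham LV came from the same hearts. Correlations between same-numbered arrays ran from -0.24 to 0.37 over 15 pairs of groups, 5 of them over 0.1. With 2 arrays per group they cannot decide whether the samples are paired. A replicate block gave 37 at 1 week, 8 at 3 weeks and 3 from 1 to 6 weeks. TAC against sham LV, PAC at 6 against 3 weeks, PAC against TAC and the difference of effects gave 0 under every alternative run. Of 732 values of named members under alternatives, 567 still passed, 165 did not and 0 reversed. These members were named for a small p or for having passed, so a reversal was unlikely from the start. The total also pools settings of unlike weight: 42 of 42 values passed with the mean over probe sets, and 21 of 42 in a fit to only the arrays compared. Signal near the low mark limits the folds of dim members.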
